A study of Mus musculus with 3 samples.

Results

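The cells described here are the microglia-like cells of the dissected mouse pituitary intermediate lobe (IL), 175 barcodes of 9661 in 3 droplet libraries. They were chosen by UMI counts of 11 genes. A barcode was a member when it had at least 1 UMI (unique molecular identifier, 1 captured transcript) in 3 or more of 6 genes of all tissue macrophages (C1qa, C1qb, C1qc, Csf1r, Tyrobp and Ctss, the first limit) and in 2 or more of 5 microglia genes (P2ry12, Gpr34, Crybb1, Trem2 and Cx3cr1, the second limit). The 179 barcodes that passed the first limit alone are called here the other macrophage-like cells. WT held 59 microglia-like and 75 other macrophage-like cells of 2020 barcodes, P27NULL 50 and 58 of 4153, and S2CK 66 and 46 of 3488. The animals of all 3 libraries carried Sox9iresCreERT2/+ and were 3 months old. The labels give tamoxifen by gavage at an age of 4 weeks. The study instead speaks of Cre being switched on at birth for these animals, and the sources used here do not settle which applies. WT had no other labelled allele, P27NULL was also p27-/- and S2CK was p27-/- with Sox2fl/+. The study's methods add a Rosa26 eYFP reporter to all 3, a pool of males for WT, and pools of both sexes for the 2 mutants. Each genotype was thus 1 library from 1 pool, so that genotype, sex of the pool and library cannot be told apart.

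Microglia are the resident macrophages of the nervous system. They take up debris and dying cells, digest it in lysosomes, and sense ATP and ADP through purine receptors such as P2ry12. Border macrophages of the meninges and vessels share the C1q and Csf1r genes with them, but carry more Mrc1, Pf4 and Ms4a7 and often MHC class II proteins, which present peptides to CD4+ T cells. The IL adjoins the posterior lobe, which is nervous tissue. The labels state that the posterior and anterior lobes were taken off before dissociation. Pituicytes, the glia of the posterior lobe, left little trace in the barcodes past the first limit. Their defining genes Nkx2-1, Rax and Col25a1 had 0 UMIs in microglia-like and in other macrophage-like cells of every library. The list of 6 pituicyte markers summed to between 28.7 and 44.8 CPM (UMIs of a gene per 1000000 UMIs) in microglia-like cells. All of it was Slc1a3, which is not particular to pituicytes. Outside the first limit, 25, 31 and 26 barcodes of WT, P27NULL and S2CK had at least 2 of these 6 markers. Which lobe the microglia-like cells came from was not tested.

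The microglia-like cells were shallow. Their median depth was 1618 UMIs in WT, 1836 in P27NULL and 2260 in S2CK, and their summed counts came to 111611, 139266 and 201372 UMIs. The WT table had a looser filter: 11 of its microglia-like cells and 27 of its other macrophage-like cells were under 1000 UMIs, against 0 in the other tables. Between 2 and 4 barcodes were shared by each pair of libraries, and 0 of these were microglia-like. Cdkn1b, which encodes p27, stood at 41.3 CPM over all barcodes in WT, 33.9 in P27NULL and 17.7 in S2CK. The library labelled P27NULL therefore kept most of the Cdkn1b signal of WT. The reads are 3′ tags, and the sources used here do not say which part of the gene the allele lacks, so this check is void if the tag lies outside it. Within microglia-like cells Cdkn1b had 6, 3 and 1 UMIs. Sox9, whose locus drives the Cre, had 0 UMIs in microglia-like cells of all 3 libraries.

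Before any comparison, the other macrophage-like cells have to be described, because they held RNA of other cell types. In 29 of 179 of them at least 3 of 7 melanotroph markers had a UMI, against 7 of 175 microglia-like cells. At least 2 of 8 stem cell markers were found in 18 and 5 barcodes. The stem cell list summed to 680 to 2617 CPM in the other macrophage-like cells and to 21.5 to 402 CPM in microglia-like cells. The melanotroph list summed to 750 to 2990 and 323 to 1932 CPM. Barcodes with markers of another type (melanotroph as above, or 2 or more stem cell, endothelial, connective tissue, pituicyte, T and NK or B cell markers) numbered 44 and 17. The comparisons between the classes were therefore made with all barcodes and again without these. That second comparison was chosen after the values were seen.

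The 5 genes of the second limit chose the cells, so their levels are a description. Trem2, a lipid-sensing receptor that signals through Tyrobp, had a UMI in 89.8%, 90.0% and 86.4% of the microglia-like cells (WT, P27NULL, S2CK). Gpr34, a receptor for lysophosphatidylserine, was found in 86.4%, 80.0% and 77.3%. Cx3cr1, the fractalkine receptor, was found in 62.7%, 80.0% and 63.6%. P2ry12, the ADP receptor that steers microglial processes, was found in 33.9%, 26.0% and 37.9%, and Crybb1, a crystallin gene known from microglia of young animals, in 15 of 59, 11 of 50 and 16 of 66 cells. In barcodes outside the first limit with at least 3 melanotroph markers, which are deeper (medians of 4602.5, 3365.5 and 5192 UMIs), none of the 5 genes was found in over 0.494%. These barcodes were chosen to fail the first limit, so their low values are partly set by that choice. Few cells carried the whole set: 5 of 59 in WT, 2 of 50 in P27NULL and 5 of 66 in S2CK had all 5. The cells nearest to the limit were numerous. Those with exactly 2 of the 5 numbered 22, 17 and 31, and those with exactly 1, just outside, 45, 32 and 21.

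Genes outside the rule were listed as well. The 10 genes with the highest level in microglia-like cells relative to all barcodes outside the first limit were Ccl12, Fcgr4, Ccl24, Fcrls, P2ry6, Fcgr3, Clec4a3, Adgre1, Fcgr1 and Ccl3. They are macrophage genes: chemokines, Fc receptors, a UDP receptor and Adgre1, which encodes F4/80. The members were chosen on macrophage genes and the barcodes outside failed that limit. This ranking therefore cannot tell microglia from other macrophages, and Ccl24 is also on the border macrophage list. Fcrls, an Fc receptor-like gene known from microglia, had 193 UMIs in 452249 in these cells and 4 in 42102106 outside. Genes of other leukocytes varied. The neutrophil list had 1 UMI over the 3 libraries, and the T and NK list 0, 1 and 10 UMIs. Of the monocyte list, Ly6c2 had 0 UMIs, Ccr2 4 and S100a6 89, of which 81 were in S2CK and 59.3% of those in 1 barcode. The dendritic cell list was not near 0, with 25, 40 and 71 UMIs (224, 287 and 353 CPM against 7.77 to 16.7 CPM outside the first limit). Of these UMIs 56 were Fscn1, which was higher than in the other macrophage-like cells in both comparisons given below, 29 Batf3, a transcription factor, 17 Itgax, the integrin CD11c, and 13 Xcr1, a chemokine receptor found in 2 cells, while Ccr7 and Zbtb46 had none in WT and P27NULL. Their part in the results was not tested. Cd79b, a B cell receptor gene, had 19 UMIs in 19 cells while Cd79a had 1. Of the border macrophage list, Cd163 had 0 UMIs in microglia-like cells, as had Lyve1 in the 2 tables with a row for it, but Ms4a7 was found in 68 and Pf4 in 38 of the 175.

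Genes that the rule did not use varied with the number of rule genes found. The 22 other microglia markers (20 with a row in each table) summed over the 3 libraries to 708 CPM in first-limit barcodes with 0 of the 5 rule genes, 1716 with 1, 2512 with 2, 5567 with 3, 6043 with 4 and 6097 with 5. In WT the list stood at 881, 2073, 4864 and 7524 CPM with 0, 1, 2 and 3 rule genes. In the same classes it stood at 737, 1869, 1450 and 4535 CPM in P27NULL and at 572, 1241, 2127 and 5071 CPM in S2CK. In P27NULL the list was thus no higher with 2 rule genes than with 1 (1139 to 1821 against 1571 to 2207 CPM). The MHC class II list stood at 18508 CPM with 0 rule genes, 29333 with 1, 27551 with 2, 16217 with 3, 7223 with 4 and 1338 with 5, so it was higher with 1 than with 0 and fell from there. In S2CK it was highest with 2 rule genes (24694, 27497 and 37202 CPM with 0, 1 and 2). The share of barcodes with at least 3 of H2-Aa, H2-Ab1, H2-Eb1 and Cd74 was 75.3%, 72.4%, 61.4%, 35.7%, 10.8% and 8.33% with 0 to 5 rule genes. Median depth lay between 1684 and 2574 UMIs over these classes. Detecting more rule genes takes more UMIs, so the steps are not independent of depth, and cells of 1 library are not replicates. No test was made of this order.

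**Figure D1:**
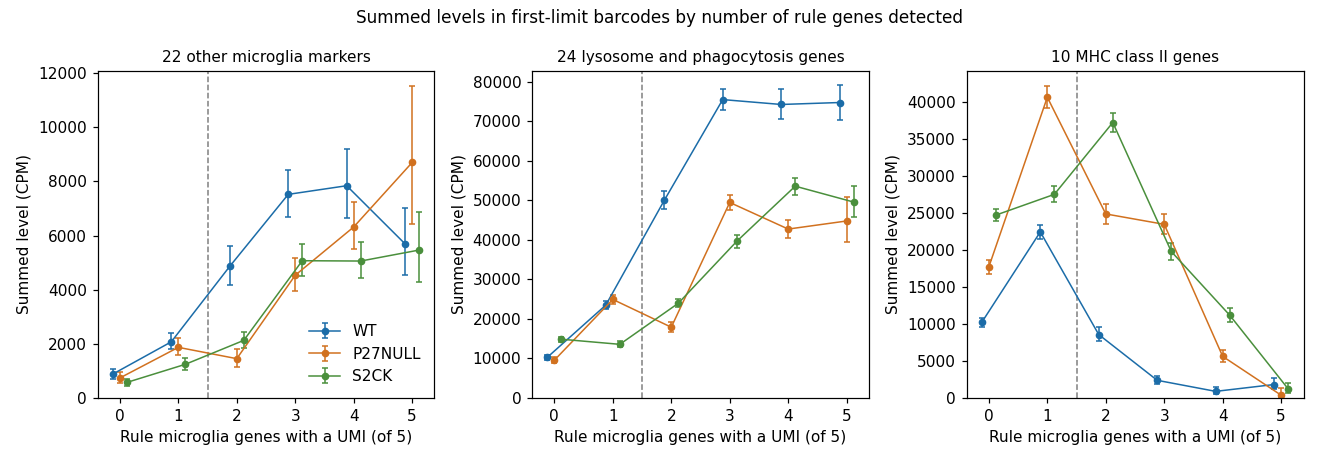
Summed level in CPM (vertical axes) of 3 gene lists in barcodes past the first limit, by how many of the 5 microglia genes of the rule had a UMI (horizontal axis); points are sums over the cells of 1 library, bars exact Poisson 95% intervals, and the dashed line the second limit. Over all libraries the other microglia markers went from 708 CPM with 0 rule genes to 6097 CPM with 5, and the MHC class II genes from 18508 CPM with 0 to 29333 CPM with 1 and 1338 CPM with 5.

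To ask which genes set the microglia-like cells apart, the counts of each class were summed per library and the 6 sums compared with edgeR's quasi-likelihood test, with the library as a block. Of 2713 genes outside the rule, 252 were higher in microglia-like cells (9.29%) and 177 lower (6.52%) at a Benjamini-Hochberg adjusted p below 0.05. Without the barcodes that carried markers of another type, 45 of 1465 genes were higher (3.07%) and 23 lower (1.57%). The first-limit genes themselves moved from a median log2 ratio of 1.34 to 0.49 between these comparisons, while the median over all genes tested stayed at -0.03 and -0.02. The genes that all these cells were chosen on were thus higher in microglia-like cells too, and more so with all barcodes. Both comparisons shared 44 genes called higher and 18 called lower, and these are the genes described first. Leaving out the S2CK library left 65 genes higher and 38 lower, and DESeq2 called 78 and 57.

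The other microglia markers were higher. Of 22 listed, 14 had enough counts to be tested, 13 were higher and 0 lower, with a median log2 ratio of 1.97. Without barcodes with markers of another type, 7 of 12 were higher and the median was 1.58. Olfml3, a secreted olfactomedin protein, stood at 403, 366 and 223 CPM in microglia-like cells of WT, P27NULL and S2CK and at 54.6, 38.5 and 40.3 CPM in the other cells, so the classes did not overlap. Its log2 ratio was 2.85 ± 0.29 (SE, adjusted p = 1.47e-07) and 2.13 in the second comparison (adjusted p = 0.0023). Fcrls stood at 582, 424 and 343 CPM against 114, 116 and 32.3 CPM (2.48 ± 0.26, adjusted p = 2.73e-07, then 1.72). Selplg, the P-selectin ligand, stood at 394, 251 and 194 CPM against 74.4, 64.2 and 40.3 CPM (2.24 ± 0.28, adjusted p = 3.52e-06, then 1.44). These 3 were named for their small adjusted p, and each was higher in every library. Sparc, a matrix glycoprotein, was also higher in both comparisons (1.81, then 2.78), as were Ltc4s, which makes leukotriene C4, and Lag3, an MHC class II receptor. Tmem119, Siglech and Bin1 were higher with all barcodes (2.08, 2.86 and 1.86) but had adjusted p = 0.069, 0.056 and 0.058 in the second comparison. Sall1, a transcription factor of microglial identity, had 30 UMIs in 24 cells and did not pass (1.68, adjusted p = 0.051). P2ry13, which neighbours P2ry12 on chromosome 3, had 17 UMIs in microglia-like cells and 1 in the others, too few to be tested.

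**Figure D2:**
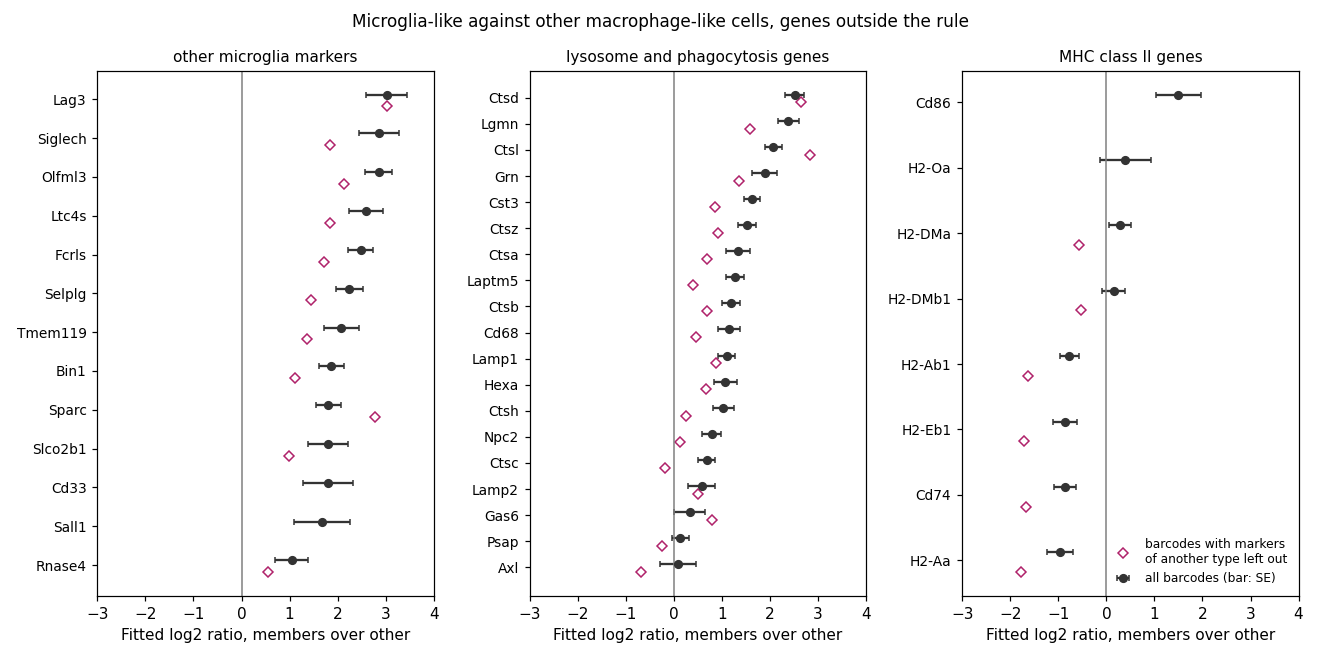
Fitted log2 ratio of microglia-like over other macrophage-like cells (horizontal axes) for tested genes of 3 lists; filled points use all barcodes with the standard error as a bar, and open diamonds leave out barcodes with markers of another type (drawn where the gene was tested there). All plotted microglia markers lie right of 0, and H2-Aa, H2-Ab1, H2-Eb1 and Cd74 lie left of it in both comparisons.

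Cryba4 had the largest increase among genes outside the rule with at least 30 UMIs. It is a crystallin gene like Crybb1, and the 2 lie on chromosome 5 with overlapping spans, Cryba4 at 112246492 to 112263625 and Crybb1 at 112254563 to 112269585 (RefSeq, GRCm38.p6), so their reads may not be fully separate. Cryba4 stood at 98.6, 86.2 and 64.6 CPM in microglia-like cells and at 4.96, 0 and 0 CPM in the others, with 37 UMIs over both classes. Its fitted log2 ratio was 5.17 ± 0.86 (adjusted p = 0.00012), then 4.34, values that depend on the prior count where a sum is 0. The next largest were Serpine2, a protease inhibitor, Itgam, the CR3 integrin chain CD11b, Lag3, Ccl24, Siglech, Olfml3, Fscn1, an actin bundler, Cxcl13, the B cell attracting chemokine, and Ltc4s, with log2 ratios from 3.56 down to 2.59. Itgam and Ccl24 lost the call in the second comparison (adjusted p = 0.062 and 0.067). Other genes called higher in both were Cd81 and Cd9, tetraspanins, Selenop, the selenium carrier, Fcgr2b, the inhibitory Fc receptor, Mef2c, a transcription factor of macrophages, Rgs10, a regulator of G protein signalling, and Vsir, an immune checkpoint protein.

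Lysosomal genes were the next group. Of 19 tested among 24, 15 were higher and 0 lower (median log2 ratio 1.15), and 8 of 19 stayed higher without barcodes with markers of another type (median 0.68). Ctsd, the aspartic protease cathepsin D, stood at 1971, 1544 and 601 CPM in microglia-like cells of WT, P27NULL and S2CK and at 258, 366 and 109 CPM in the others (log2 ratio 2.51 ± 0.20, adjusted p = 1.03e-08, then 2.65). Ctsl, the cysteine protease cathepsin L, stood at 1111, 919 and 829 CPM against 233, 250 and 206 CPM (2.07 ± 0.18, adjusted p = 2.86e-08, then 2.82). Lgmn, the asparagine-specific protease legumain, stood at 1281, 862 and 869 CPM against 134, 237 and 210 CPM (2.38 ± 0.22, adjusted p = 6.44e-08, then 1.58). Within each library the 3 proteases were higher in microglia-like cells. Cst3, cystatin C, an inhibitor of cysteine proteases, made up most of the list's UMIs, at 51993, 24658 and 26588 CPM against 11801, 10813 and 9606 CPM (1.62 ± 0.17, adjusted p = 2.38e-07, then 0.86). Ctsz, Grn, Lamp1 and Ctsb were also higher in both comparisons. Not every gene of the list was: Psap, the saposin precursor, had log2 ratios of 0.13 and -0.25 (adjusted p = 0.69 and 0.50), and Axl, a receptor for dying cells, 0.08 and -0.69 (adjusted p = 0.93 and 0.45).

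The promoters of these lysosomal genes are shown because the genes moved together. The 8 letters GTCACGTG, which contain the E-box of the kind bound by TFEB-type factors at lysosomal genes, were searched on both strands (CACGTGAC on the other) in the RefSeq promoter windows of GRCm38.p6, from 250 bases before to 50 after a start. They were in 4 of 22 genes of the lysosome list with a window (18.2%) and in 689 of 27025 genes in all (2.55%). The motif was chosen with the results known, and a match is a description of letters, not of a bound site. The 4 were Ctsa, Ctsd, Lgmn and Lamp1. Ctsa, whose window holds it 14 bases before and 5 after the start, had log2 ratios of 1.33 and 0.68 and lost the call in the second comparison (adjusted p = 0.16). The windows of the 3 that were higher in both comparisons follow on their coding strands, with the matched letters in capitals. Ctsd is at chr7:142387778-142388077 on the minus strand with 2 matches, starting 245 and 98 bases before the start, Lgmn at chr12:102439043-102439342 on the minus strand (51 bases before), and Lamp1 at chr8:13158911-13159210 on the plus strand (28 bases before).
Ctsd: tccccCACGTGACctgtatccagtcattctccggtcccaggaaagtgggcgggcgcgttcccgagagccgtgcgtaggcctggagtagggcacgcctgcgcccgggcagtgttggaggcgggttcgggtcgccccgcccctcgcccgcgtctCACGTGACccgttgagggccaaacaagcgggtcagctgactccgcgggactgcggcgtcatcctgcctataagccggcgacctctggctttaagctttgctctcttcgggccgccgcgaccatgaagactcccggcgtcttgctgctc
Lgmn: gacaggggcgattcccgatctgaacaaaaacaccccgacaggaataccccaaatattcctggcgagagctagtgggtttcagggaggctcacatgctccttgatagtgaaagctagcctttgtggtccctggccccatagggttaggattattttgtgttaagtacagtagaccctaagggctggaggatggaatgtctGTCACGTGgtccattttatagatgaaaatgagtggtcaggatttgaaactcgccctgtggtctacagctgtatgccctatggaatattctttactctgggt
Lamp1: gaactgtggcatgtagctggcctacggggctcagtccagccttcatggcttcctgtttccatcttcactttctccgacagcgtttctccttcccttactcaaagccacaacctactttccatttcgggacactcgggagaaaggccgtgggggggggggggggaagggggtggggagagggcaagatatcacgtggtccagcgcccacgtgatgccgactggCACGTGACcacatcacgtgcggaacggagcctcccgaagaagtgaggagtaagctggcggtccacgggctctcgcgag
Ctsl, with the largest ratio of the list in the second comparison, and Cst3 had no match in their windows.

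MHC class II genes were lower. Of 8 tested among 10, the 4 that encode or chaperone the class II dimer were lower in both comparisons. H2-Aa stood at 332, 2283 and 3521 CPM in microglia-like cells of WT, P27NULL and S2CK and at 2093, 3330 and 3960 CPM in the others (log2 ratio -0.97 ± 0.27, adjusted p = 0.015, then -1.77, adjusted p = 0.041). It was lower in each library, but the ranges of the classes overlapped because the libraries differed more than the classes did. H2-Ab1, H2-Eb1 and Cd74, the invariant chain, had log2 ratios of -0.77, -0.86 and -0.86, and -1.64, -1.71 and -1.67 in the second comparison. H2-DMa and H2-DMb1, which load peptide, did not pass in either (0.28 and 0.16, then -0.57 and -0.52). Cd86, a costimulatory ligand, was higher with all barcodes (adjusted p = 0.030) and had too few counts for the second comparison. The median of the list was -0.31, then -1.65. DESeq2 with all barcodes called 0 of the 8 genes lower at an adjusted p below 0.05, where edgeR called 4 (also 4 at an unadjusted p below 0.05).

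Border macrophage markers did not separate the classes with all barcodes. Of 12 tested among 21, 1 was higher (Ccl24, an eosinophil-attracting chemokine) and 0 lower, with a median log2 ratio of 0.34. Without barcodes with markers of another type the median was -0.68 and 1 of 11 was lower, Clec12a, an inhibitory lectin receptor (-1.69, adjusted p = 0.026). Ms4a7, a marker of border macrophages, stood at 645, 955 and 621 CPM against 898, 1271 and 347 CPM (-0.01, then -0.83, adjusted p = 0.99 and 0.10), and Pf4 at 376, 811 and 457 CPM against 645, 327 and 206 CPM (0.59, then -0.81, adjusted p = 0.14 and 0.59). Mrc1, the mannose receptor, had 35 UMIs in 19 cells (0.54, then -0.53). None of these 3 passed in either comparison, and the sign of Pf4 and Mrc1 turned between them. Mgl2, a lectin receptor of dendritic cells and some macrophages, and Lgals3, a galectin, were lower in both (-2.46 and -2.03, then -4.49 and -1.82).

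Signalling and immune lists were mostly higher with all barcodes, and most of these calls were lost in the second comparison. In the Fc receptor and ITAM list 10 of 13 were higher, 2 of 12 in the second comparison (Fcgr2b and Cd37, a leukocyte tetraspanin). In the chemokine and cytokine list edgeR called 6 of 10 higher and DESeq2 4, and edgeR called 0 of 9 in the second comparison, where 3 were higher and 2 lower at an unadjusted p below 0.05. These 6 were Ccl12, Ccl2, Ccl3, Il1a, Ccl4 and Cd83. Il1a, a cytokine released by dying cells, had 20 UMIs in 18 microglia-like cells and 0 in the others. Ccl12, a monocyte-attracting chemokine, stood at 1541, 1508 and 3069 CPM against 848, 571 and 339 CPM (1.82 ± 0.27, adjusted p = 3.67e-05, then 0.99, adjusted p = 0.21). Of the complement list, 4 of 5 were higher with all barcodes (C3ar1, Itgam and Itgb2 among them) and 1 of 5 in the second. Of macrophage transcription factors, 5 of 11 were higher (Mef2c, Irf8, Spi1 and Irf5 among them) and 3 of 10 in the second (among them Mef2c and Bhlhe41, a clock-linked repressor). The 3 tested purine genes gave 2 higher (P2ry6 and Entpd1, an ectonucleotidase that clears ATP), then 0 of 3 by edgeR (1 at an unadjusted p below 0.05), and 0 by DESeq2 with all barcodes. The 4 tested TGF-beta genes gave 2 higher (Tgfbr1 and Itgb5), then 0 of 4 by edgeR, also at an unadjusted p below 0.05, and 1 by DESeq2 with all barcodes. The disease-associated microglia list, genes raised in microglia of degenerating brain, gave 2 of 7 higher (Apoe and Cd9) and 1 lower (Lgals3), with a median of 0.50. In the second comparison 1 of 5 was higher (Cd9) and 1 lower (Lgals3), with a median of -0.05, and Apoe, the lipid carrier, had lost its call (0.57, then -0.20, adjusted p = 0.60). DESeq2 called 1 higher with all barcodes. Cd9 stood at 2966, 1637 and 1435 CPM against 878, 404 and 649 CPM (1.65 ± 0.18, adjusted p = 5.20e-07, then 2.60), while Gpnmb and Clec7a had no row in any table and Cst7 had 3 UMIs.

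Immediate early genes, which handling during dissociation can raise, gave 4 of 15 higher (Rhob, Zfp36, Ier5 and Junb) and 1 lower (Dusp1), and edgeR called 0 of 15 in the second comparison (2 higher and 1 lower at an unadjusted p below 0.05), with medians of 0.02 and 0.33. DESeq2 called 0 of them with all barcodes. Heat shock genes gave 2 of 7 lower (Hspb1 and Dnaja1) and 0 of 5 in the second by edgeR, also unadjusted, while DESeq2 called 1 with all barcodes. Interferon response genes gave 2 of 11 higher (Cxcl10 and Ifi27l2a) and 2 lower (Ifitm3 and Oasl2), and 0 of 8 in the second by edgeR (1 in each direction unadjusted), while DESeq2 called 1 with all barcodes. Cell cycle genes were too low to test but for Hmgb2 (log2 ratio -0.12, adjusted p = 0.87), and Mki67 had 1 UMI in the 175 cells. Stem cell markers were lower for 7 of 7 tested, melanotroph markers for 3 of 4, and hormone and granule genes for 5 of 8. In the second comparison no stem cell marker had enough counts to be tested, edgeR called 0 of 1 melanotroph markers (1 lower at an unadjusted p below 0.05), and 5 of 8 hormone and granule genes were lower. The 10 largest decreases by the same rule as above included Tagln, Fam107a, Rhou, Afdn, Prelp, Cryab, Folr1, Cpxm2 and Plat, with log2 ratios from -4.78 to -3.52. Cpxm2 is 1 of the stem cell markers. None of the 10 kept enough counts to be tested once barcodes with markers of another type were left out. Pomc, the melanotroph hormone precursor, was found in 172 of the 175 microglia-like cells, at a median of 0.258%, 0.311% and 0.403% of a cell's UMIs against 10.8% to 12.3% in barcodes outside the first limit.

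The share of microglia-like cells can be compared between libraries only as counts, without a test. They made up 2.92% of barcodes in WT (exact 95% interval 2.23 to 3.75), 1.20% in the library labelled P27NULL (0.895 to 1.58) and 1.89% in S2CK (1.47 to 2.40). Of the barcodes past the first limit they made up 44.0% (35.5 to 52.9), 46.3% (36.7 to 56.2) and 58.9% (49.2 to 68.1), and these intervals overlap. Of all barcodes the WT interval lay above that of P27NULL, and that of S2CK overlapped both. Barcodes with at least 1000 UMIs and 500 genes gave 2.59%, 1.20% and 1.89%. With each barcode thinned to 1000 UMIs and the rule applied again, the shares were 1.78%, 0.867% and 1.18%. Melanotrophs make up most of the denominator. Intervals here and below cover counting error only.

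MHC class II genes differed between libraries within microglia-like cells. The 10 genes summed to 4112 CPM in WT (3745 to 4507), 18748 CPM in the library labelled P27NULL (18036 to 19482) and 24264 CPM in S2CK (23588 to 24954), against 151 to 264 CPM outside the first limit. The log2 ratio to WT was 2.19 for P27NULL and 2.56 for S2CK. That of S2CK to P27NULL was 0.37, but 0.0015 with barcodes thinned to 1000 UMIs and -0.10 in cells with 3 or more rule genes, so the order of these 2 levels depended on the limit. In P27NULL 1 barcode of 21977 UMIs, 0.0091% of them from the 4 class II genes, made up 15.8% of the summed UMIs. As cells, 8 of 59 in WT (13.6%, 6.04 to 24.98), 21 of 50 in P27NULL (42.0%, 28.2 to 56.8) and 39 of 66 in S2CK (59.1%, 46.3 to 71.0) had at least 3 of the 4 class II genes. WT lay below both others, and the intervals of P27NULL and S2CK overlapped. Thinned to 1000 UMIs the shares were 8.33%, 38.0% and 47.0%, with 11 WT cells too shallow to enter. Barcodes outside the first limit with at least 3 melanotroph markers gave 0.692%, 0.223% and 0.381% before thinning. Among cells with 3 or more of the 5 rule genes the shares were 5.41% (2 of 37), 27.3% (9 of 33) and 40.0% (14 of 35), in the same order. Without barcodes with markers of another type they were 12.7%, 41.3% and 56.1%. The other macrophage-like cells showed a smaller spread, 64.0%, 75.9% and 87.0%, and 16032, 28640 and 25778 CPM.

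**Figure D3:**
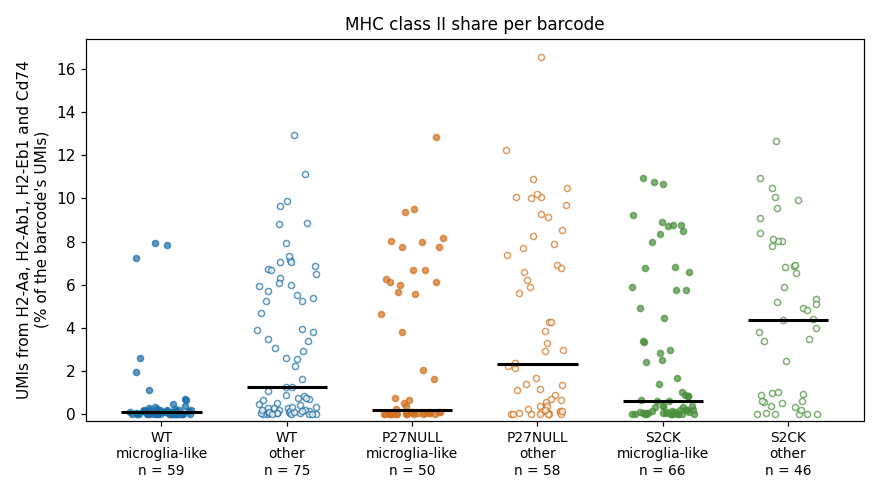
Percent of a barcode's UMIs from H2-Aa, H2-Ab1, H2-Eb1 and Cd74 (vertical axis) for each microglia-like cell (filled) and other macrophage-like cell (open) of the 3 libraries; black bars are medians. Medians of microglia-like cells were 0.0719%, 0.167% and 0.591% in WT, P27NULL and S2CK, and the highest cells reached 7.91%, 12.8% and 10.9%.

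Within a library the microglia-like cells fell on both sides. In WT 25 of 59 cells had 0 UMIs of the 4 genes, in P27NULL 11 of 50 and in S2CK 10 of 66, while the median among cells with at least 3 of the 4 genes was 2.28%, 6.26% and 3.41% of UMIs. Microglia-like cells with at least 3 of the 4 genes had lower microglia markers. Summed over libraries, the 22 other microglia markers stood at 2890 CPM in these 68 cells and at 5748 CPM in the other 107, and border macrophage markers at 3337 and 1313 CPM. The same order of both lists held in each of the 3 libraries. For border macrophage markers it was 7742 against 1025 CPM in WT, 4379 against 1813 in P27NULL and 2497 against 1053 in S2CK. In the library labelled P27NULL, 12 microglia-like cells had a UMI of Xist, which is transcribed in female cells, and 38 had none. The cells without Xist, which can be male or undetected female, had at least 3 class II genes in 18 of 38 and 22013 CPM of the 4 genes, and those with Xist in 3 of 12 and 7468 CPM. In S2CK, also a pool of both sexes, 41 of the 66 microglia-like cells had a UMI of Xist. There the share of cells with at least 3 class II genes was close with and without Xist. A link to sex was not tested.

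The lists of this paragraph differed less from WT. Some lists of other cell types did not. Melanotroph markers had a log2 ratio to WT of 2.58 in P27NULL, where 56.1% of their UMIs came from 1 barcode. Monocyte markers had 3.70 in S2CK, on 94 UMIs there and 4 in WT. The other microglia markers summed to 6442, 4000 and 3809 CPM in WT, P27NULL and S2CK, a log2 ratio to WT of -0.69 and -0.76. Lysosomal genes summed to 66651, 36096 and 36534 CPM (-0.88 and -0.87), of which Cst3 made up 51993, 24658 and 26588 CPM. With barcodes thinned to 1000 UMIs these 4 ratios were -0.36, -0.54, -0.55 and -0.61. The 6 first-limit genes, which chose the cells, were also lower than in WT, with log2 ratios of -0.66 in P27NULL and -0.46 in S2CK. The Fc receptor and ITAM list had -0.51 and -0.62. The lower levels were thus not particular to the microglia and lysosome lists. Chemokine and cytokine genes summed to 4077, 6958 and 5721 CPM (0.77 and 0.49), with 2 genes behind most of it. Ccl4, an inflammatory chemokine, stood at 1201, 3073 and 1177 CPM, and Ccl12 at 1541, 1508 and 3069 CPM. Border macrophage markers summed to 1873, 2693 and 2006 CPM (0.52 and 0.10). Interferon response genes summed to 4776, 4351 and 5194 CPM, with 18.5% of the UMIs of P27NULL and 21.5% of those of S2CK from 1 barcode.

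By the rule for single genes, the largest increases and decreases were taken among genes with at least 30 UMIs in the microglia-like cells of the 2 libraries and a level there at least that of barcodes outside the first limit. Of 689 such genes, 5.37% were over 2-fold higher and 4.79% over 2-fold lower in P27NULL than in WT. Of 787, 4.32% and 7.62% were higher and lower in S2CK than in WT, and of 845, 6.15% and 7.34% in S2CK than in P27NULL. Cxcl13 stood at 1003 CPM in WT (112 UMIs in 18 cells), 35.9 CPM in P27NULL (5 UMIs) and 422 CPM in S2CK (85 UMIs in 15 cells). The log2 ratio of P27NULL to WT was -4.80 (-6.46 to -3.54), and 19.6% of the WT UMIs came from 1 cell. Ccl3 stood at 224, 933 and 258 CPM, so it was highest in P27NULL with intervals apart. Ccl6 and Mif, a chemokine and a macrophage cytokine, were higher in P27NULL than in WT (2.29 and 2.40), as was Ccl7 (3.27), of which 41.7% of UMIs came from 1 of 3 cells. H2-Eb1 and H2-Aa were the largest increases that rested on many cells, with log2 ratios of 2.83 and 2.78 in P27NULL and 3.31 and 3.41 in S2CK relative to WT. Crybb1 (394, 122 and 134 CPM), Cebpd, a transcription factor of the acute response, and Hebp1, a heme-binding protein, were lower in P27NULL than in WT (-1.69, -1.68 and -2.10). Crybb1 is a gene of the rule, with 29.5% of its WT UMIs from 1 cell, and the ratio of Cebpd was -0.998 without barcodes with markers of another type. Hebp1 was lower also in S2CK (-1.72). Hk2, a hexokinase, was lower in S2CK than in both others, at 74.5 CPM against 466 in WT and 359 in P27NULL (-2.64 and -2.27). Tbpl1 and Erh were lower in S2CK than in WT (-1.85 and -1.76), and Fabp5, Bnip3, Ccl6 and Tle4 lower in S2CK than in P27NULL (-2.81 to -2.12), with 64.7% of the Fabp5 UMIs in P27NULL from 1 cell. Several other genes named by the rule came mostly from 1 barcode. This held for 99.1% of Gh UMIs in WT, 100% of Mgp and Spp1 and 99.0% of Igfbp7 in S2CK, and 93.0% of Dcn and 59.3% of S100a6 there. Isg15, an interferon-induced ubiquitin-like protein, stood at 224, 115 and 665 CPM and Cxcl10, an interferon-induced chemokine, at 116, 187 and 576 CPM, the latter in 14 cells in all. Of the Isg15 UMIs in S2CK, 51.5% came from 1 cell.

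**Figure D4:**
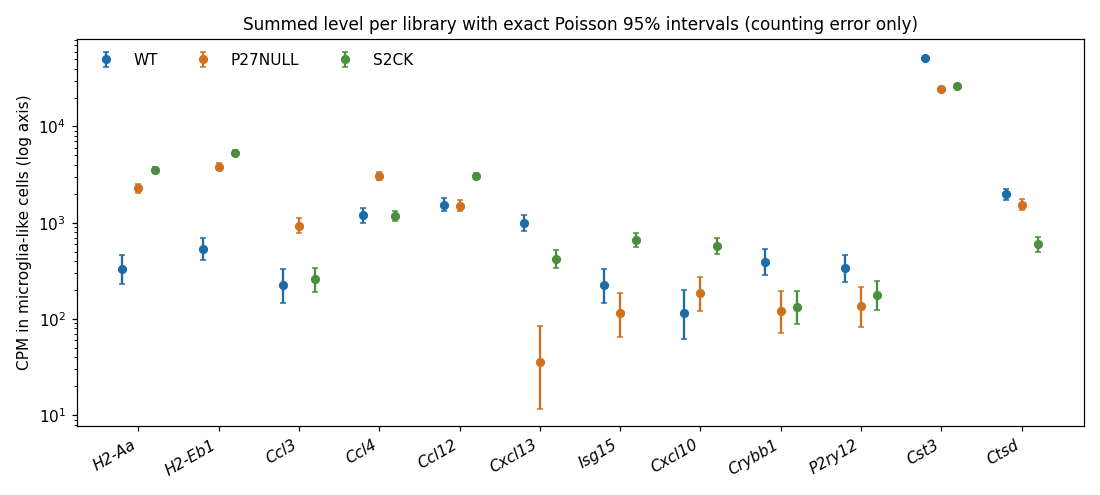
Summed level in CPM of microglia-like cells (vertical axis, log scale) for 12 genes in the 3 libraries; bars are exact Poisson 95% intervals and cover counting error only. H2-Aa and H2-Eb1 are lowest in WT, Cxcl13 is lowest in P27NULL at 35.9 CPM, and Ccl3 and Ccl4 are highest in P27NULL.

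Ligands that keep or restrain microglia were looked for in the surrounding cells, since the receptors Csf1r, Cx3cr1 and Tgfbr1 were found in the microglia-like cells. Cx3cl1, the ligand of Cx3cr1, stood at 108, 141 and 121 CPM in barcodes with at least 3 of 6 stem cell markers (118, 85 and 61 barcodes of WT, P27NULL and S2CK), and at 39.7, 45.3 and 27.3 CPM in those with at least 3 melanotroph markers. Both kinds failed the first limit. The stem cell barcodes also had fewer than 3 melanotroph markers, while the melanotroph barcodes had no limit on stem cell markers. In each library the stem cell intervals lay above the melanotroph ones (77.9 to 146 against 34.6 to 45.4 CPM in WT, 101 to 191 against 41.6 to 49.3 CPM in P27NULL, and 88.9 to 162 against 24.8 to 30.05 CPM in S2CK). Tgfb2 showed the same order, at 79.8, 68.7 and 89.7 CPM against 1.85, 0.501 and 0.510 CPM. Csf1 stood at 5.15, 20.6 and 31.7 CPM in the stem cell barcodes and at 1.48, 1.002 and 0.892 CPM in the melanotroph barcodes. The stem cell values rest on 2, 6 and 12 UMIs, and the WT intervals overlapped (0.62 to 18.6 against 0.64 to 2.91 CPM). Il34, the other ligand of Csf1r, had 1, 0 and 0 UMIs in the stem cell barcodes and 7, 6 and 9 in the melanotroph barcodes. Among the macrophage-like, stem cell and melanotroph barcodes, Tgfb1 was highest in the microglia-like cells, at 116, 129 and 184 CPM against 3.69, 3.76 and 2.61 CPM in melanotroph barcodes. Other cell types were not measured for these ligands. Cd200, another listed ligand, stood at 54.0, 92.7 and 31.7 CPM in the stem cell barcodes. In the melanotroph barcodes it stood at 45.3, 75.3 and 59.1 CPM, so its order turned in S2CK.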

How the data were processed

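Single cells of the dissected intermediate lobe were profiled in 3 libraries, 1 per genotype. Per the study's methods and labels, the authors made 10x 3′ v3 libraries, aligned them to GRCm38 with Cell Ranger 3.0.2 and deposited raw UMI counts per gene and barcode. Members and gene lists were chosen with earlier results of these data known.

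Counts of the microglia-like and the other macrophage-like cells were summed per library. The 6 sums were compared with edgeR 4.0.16 (R 4.3.3, TMM factors, filterByExpr, library block, Benjamini-Hochberg adjustment over all genes tested), and DESeq2 1.42.0 was an alternative. The 11 rule genes were left out of all counts of calls. The 3 sums of a class are the replicates, each from a different genotype. Tests were tried on simulated data. Between genotypes no test was possible; levels carry exact Poisson and shares exact Clopper-Pearson 95% intervals. Doublets were not called; barcodes with markers of another type were left out in a second comparison.

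Named were the 10 largest changes in each direction among genes with at least 30 UMIs, an adjusted p below 0.05 and the same direction in all 3 libraries, the 5 largest in each direction between libraries, the 10 leading genes, and up to 4 genes per list. Further genes called in both comparisons or named between libraries were chosen after their values were seen. Promoters were matched by symbol to RefSeq GRCm38.p6; 91.9% of symbols matched. A few genes named by these rules are not reported here.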

Additional observations from a re-analysis of the deposited data

Results flagged for a closer look

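In 4 gene lists the sign of the log2 ratio of microglia-like over other macrophage-like cells differed between libraries. The difference between libraries was not tested. With all barcodes, the interval included 0 for border macrophage markers in P27NULL and for immediate early genes in S2CK. It also did for cell cycle genes and connective tissue markers in WT. Border macrophage markers had -0.34 in WT, 0.21 in P27NULL and 0.55 in S2CK, and -1.74, -0.08 and -0.17 without barcodes with markers of another type. Immediate early genes had -0.24, 0.40 and 0.074, and 0.042, 0.51 and 0.063 without such barcodes, where the signs no longer differed. Cell cycle genes had 0.72, 1.40 and -1.31, on 21, 66 and 47 UMIs in microglia-like cells, and 0.18, 1.89 and -1.95 without such barcodes. Of their UMIs in the microglia-like cells of P27NULL, 33.3% came from 1 barcode. In the other macrophage-like cells of S2CK 21.0% did. Connective tissue markers had -0.45, -3.54 and 2.33, and 92.7% of their UMIs in the microglia-like cells of S2CK came from 1 barcode. Without barcodes with markers of another type they had -1.33, -0.15 and 0.33, with intervals that included 0.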

How the results depend on the processing

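Each class had 1 sum per library, and single genes rest on few UMIs, so small differences were not detectable at this depth. Between genotypes no paired analysis was possible, with 1 library each and no replicate numbers in the labels. The classes of a library were paired, with the library as the block of their comparison. Leaving out barcodes with markers of another type was chosen after seeing the data. Where a value moved, the cause was not tested.

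For genes called higher and lower in microglia-like cells (252 and 177), the counts were 114 and 53 with no library block, 42 and 20 with barcodes thinned to 1000 UMIs, 97 and 65 without barcodes with 3 or more melanotroph markers, 45 and 23 without barcodes with markers of another type, 25 and 8 when fewer than 5 of the 6 first-limit genes also excluded a barcode, and 78 and 57 with DESeq2. Leaving out a library gave 65 to 179 and 38 to 119, the lowest without S2CK and the next, 130 and 86, without P27NULL. Shares of all barcodes in WT, P27NULL and S2CK were 1.78%, 0.867% and 1.18% thinned, 5.15%, 1.97% and 2.49% with a second limit of 1 of 5, and 1.83%, 0.795% and 1.003% with 3 of 5. Of first-limit barcodes they were 77.6%, 75.9% and 77.7% with 1 of 5 and 27.6%, 30.6% and 31.2% with 3 of 5, and 45.1% in S2CK thinned.

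Between libraries, the log2 ratios of list levels that moved were as follows. With TMM factors they were, for S2CK over P27NULL 0.18 (microglia), 0.62 (MHC), 0.27 (lysosome), -0.035 (chemokine) and 0.50 (interferon), for S2CK over WT -0.53 (microglia), 2.79 (MHC), -0.64 (lysosome), 0.72 (chemokine) and 0.35 (interferon). With totals without hormone, mitochondrial and ribosomal protein genes they were, for S2CK over P27NULL 0.45 (MHC) and 0.091 (lysosome), for S2CK over WT -0.75 (lysosome). Thinned to 1000 UMIs they were, for P27NULL over WT -0.36 (microglia), 2.91 (MHC), -0.55 (lysosome) and 0.092 (interferon), for S2CK over P27NULL 0.0015 (MHC), -0.061 (lysosome), -0.45 (chemokine) and -0.081 (interferon), for S2CK over WT -0.54 (microglia), 2.91 (MHC) and -0.61 (lysosome). With a second limit of 3 of 5 they were, for P27NULL over WT -0.40 (microglia), 3.02 (MHC), -0.69 (lysosome), 1.47 (chemokine) and 0.31 (interferon), for S2CK over P27NULL -0.10 (MHC), -0.50 (chemokine) and -0.24 (interferon), for S2CK over WT -0.50 (microglia), 2.93 (MHC), -0.70 (lysosome) and 0.97 (chemokine). Without barcodes with 3 or more melanotroph markers they were, for P27NULL over WT -0.30 (microglia), 2.55 (MHC), -0.52 (lysosome), 1.21 (chemokine) and 0.29 (interferon), for S2CK over P27NULL -0.28 (microglia), 0.17 (MHC), -0.19 (lysosome), -0.57 (chemokine) and -0.12 (interferon), for S2CK over WT -0.58 (microglia), 2.72 (MHC), -0.71 (lysosome) and 0.65 (chemokine). Without barcodes with markers of another type they were, for P27NULL over WT -0.35 (microglia), 2.49 (MHC), -0.55 (lysosome), 1.21 (chemokine) and 0.52 (interferon), for S2CK over P27NULL -0.47 (chemokine) and -0.15 (interferon), for S2CK over WT -0.49 (microglia), 2.79 (MHC), -0.54 (lysosome), 0.74 (chemokine) and 0.38 (interferon). Signs turned for MHC class II genes (S2CK over P27NULL, 3 of 5) and for interferon response genes in both contrasts with P27NULL. For the interferon ratio of P27NULL to WT the interval with all barcodes included 0 (-0.30 to 0.036). Signs also turned for 2 ratios of S2CK to P27NULL whose interval included 0, those of microglia markers (TMM) and lysosomal genes (thinned, and without barcodes with 3 or more melanotroph markers).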
